A study of Rattus norvegicus with 12 samples.

Results

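Rat L6 myotubes that had received 60 µM resveratrol for 24 h were compared with myotubes that had received the solvent alone. The arrays were chosen by their treatment label, 3 labelled resveratrol and 3 labelled control, which makes 6 of the 12 arrays in the series. L6 is an established rat skeletal muscle cell line, and the myoblasts had been differentiated into myotubes before the treatment, for 6 days by the sample labels and 7 by the publication. All groups, the control included, received DMSO, and the other 6 arrays came from myotubes given 60 µM pinosylvin or 60 µM GR24 for the same 24 h, 3 arrays each. The 3 replicates of a group were independent experiments on cells of the same batch, and RNA of each was measured on an Agilent 1-colour array.

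Resveratrol is a plant stilbene that is studied for its actions on oxidative stress, energy metabolism and cell division. Pinosylvin is a stilbene too, and resveratrol differs from it by an additional hydroxyl group, carried on the ring that is unsubstituted in pinosylvin. GR24 is a synthetic strigolactone and no stilbene. Electrophiles and oxidants release the transcription factor Nrf2 from Keap1, after which it switches on genes for glutathione synthesis, detoxification and the supply of NADPH. Myotubes form when myoblasts leave the cell cycle, fuse and build sarcomeres, under transcription factors such as MyoD and myogenin.

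Of the 58717 spots on each array other than controls, 61.8%, 61.7% and 64.0% were well above background on the resveratrol arrays and 62.2%, 59.5% and 64.3% on the control arrays, by the mark of the scanner software. No spot was saturated on these 6 arrays. The small number of arrays sets a limit to the precision. Values of a gene on an array are log2 signals relative to the 75th percentile of that array, so that 0 stands for the brightness of that percentile. Differences between groups are log2 fold changes, each with its standard error (SE), and a gene said to be at a value had that log2 fold change. They were tested with the moderated test of limma on all 12 arrays. The p-values were adjusted over all 24278 tested probes by the Benjamini-Hochberg method, and a gene is said to have risen, fallen or passed the test where the adjusted p was under 0.05. Each gene is represented by 1 probe. The arrays of replicates 1 and 2 shared a slide and those of replicate 3 had their own, with every group present on both slides. Within a slide, each treatment always lay in the same column, control in column 1 and resveratrol in column 4, and position and treatment cannot be told apart.

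With resveratrol, 30 of the 38 tested targets of Nrf2 rose, among them *Gsta1*, which encodes a glutathione transferase and was 10.2-fold higher, and *Nqo1*, which encodes a quinone reductase and was 4.22-fold higher. Genes of cell division were lower, with 30 of 31 tested mitosis genes and 30 of 34 tested DNA replication genes falling. Of the genes of the sarcomere and of contraction, 20 of 42 fell. The chemokine genes *Ccl2* and *Cxcl1* rose, but of 17 tested inflammatory genes 5 rose and 2 fell, with a median log2 fold change of -0.02. The stress gene *Gdf15* rose too, from control signals of which none was well above background. Among 33 tested genes of the respiratory chain, limma called 0 in either direction. At an unadjusted p under 0.05, 2 of these 33 were higher and 0 lower.

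Over the whole array, 17.0% of the tested probes differed, 1941 higher and 2182 lower with resveratrol. Of the 10740 tested genes with a name, 927 rose, which is 8.63%, and 1104 fell, which is 10.3%. These shares are the background for the counts within gene groups given here. Small counts in several groups lie near or below them, also where that is not said again. Changes of over 2-fold were found in 78 of the genes that rose and 125 of those that fell. The median size of the log2 fold change among genes that passed was 0.47, and the smallest was 0.19. The median log2 fold change of all tested genes was 0.02, the background for the medians of gene groups. With the replicate number as a block in the fit, 1692 genes rose and 1649 fell, and with the slide as a block 1750 rose and 1651 fell. Leaving out resveratrol replicate 1 lowered the number of probes called higher to 1192, and leaving out resveratrol replicate 2 lowered it to 1285.

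**Figure D1:**
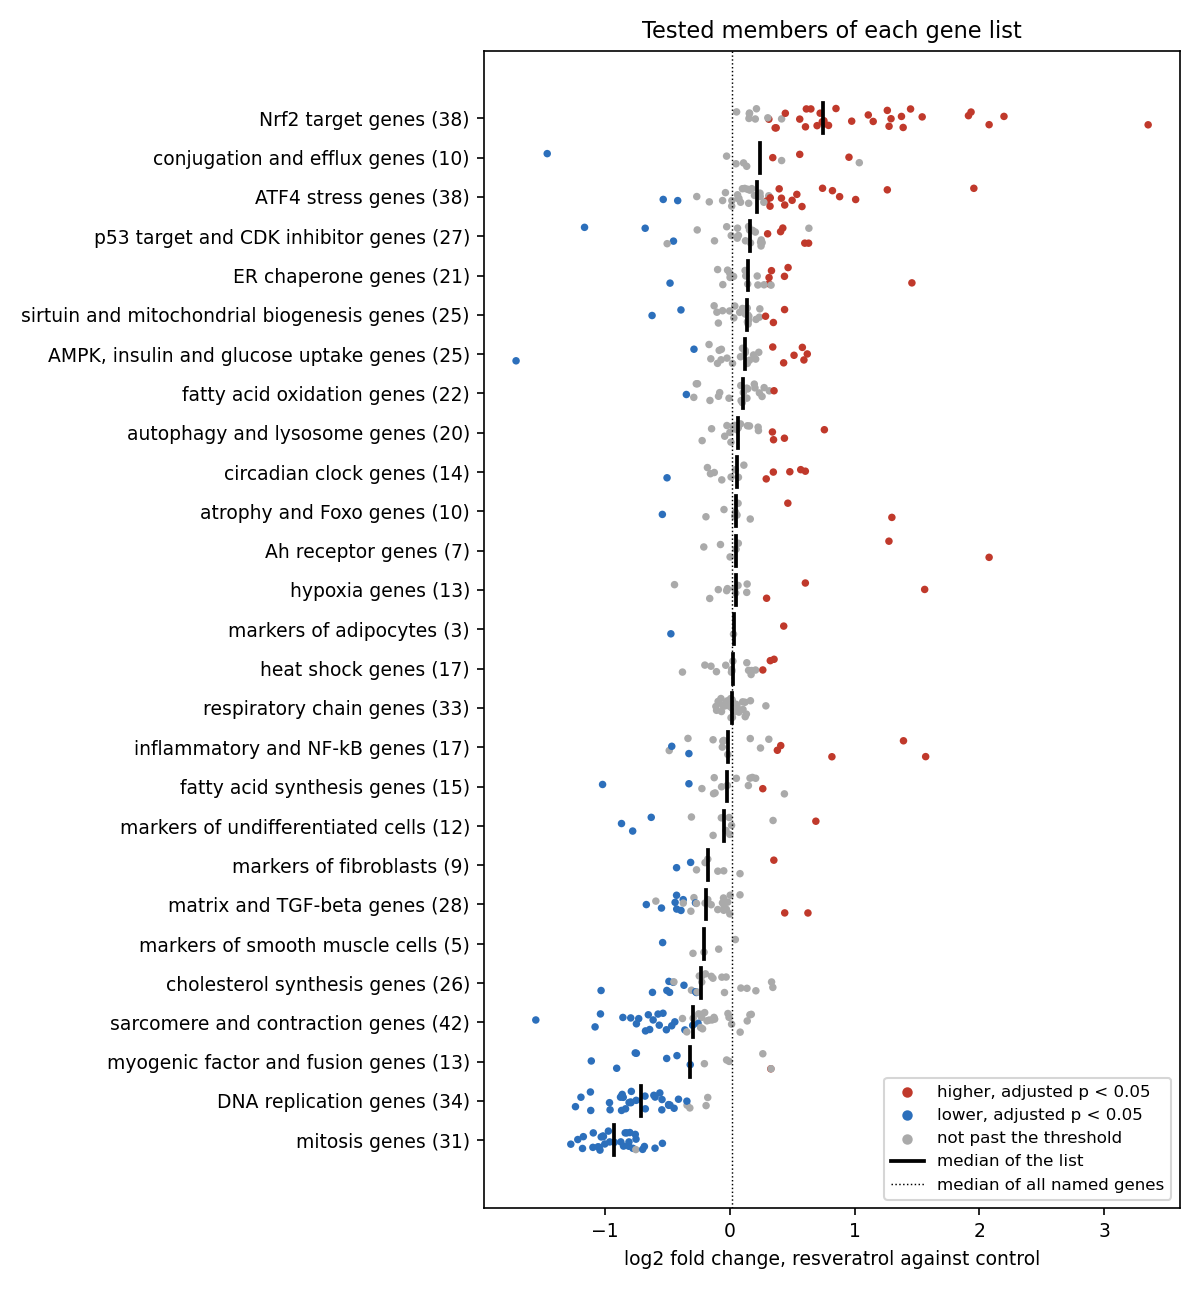
Each point is the log2 fold change, resveratrol against control, of 1 tested gene, arranged by gene group and coloured by whether the gene was higher, lower or not past the test. Bars are group medians and the dotted line is the median of all tested genes, 0.02. The mitosis group has a median of -0.93 and the Nrf2 target group one of 0.75.

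The antioxidant response was described through 40 targets of Nrf2, of which 38 were tested and *Gclm* and *Gsta3* were not. None of the 38 had a negative log2 fold change. Their median was 0.75, with 0.75 on slide 1 and 0.66 on slide 2, and the range was 0.05 to 3.35. limma called 0 members lower, and at an unadjusted p under 0.05 there were also 0. Leaving out any 1 array gave between 28 and 30 members higher.

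*Gsta1* read 4.27, 4.06 and 4.06 with resveratrol and 0.78, 0.83 and 0.73 in the control. All 3 resveratrol arrays lay far above all 3 control arrays, and the groups did not overlap. Its change by 3.35 (SE 0.09, adjusted p = 3.23e-08) was the largest increase among genes well above background on all 6 arrays. *Nqo1* read 5.37, 5.50 and 5.40 against 3.38, 3.28 and 3.38. Every resveratrol array was higher than every control array, by 2.08 (SE 0.07, adjusted p = 1.15e-07). *Srxn1* encodes sulfiredoxin, which restores oxidized peroxiredoxins, and read 2.85, 2.72 and 2.55 against 0.87, 0.84 and 0.61. The groups were again apart, and the difference was 1.93 (SE 0.13, adjusted p = 1.03e-05). *Osgin1*, an oxidative stress response gene that restrains growth, rose by 2.20 (SE 0.15, adjusted p = 1.36e-05).

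*Hmox1* encodes heme oxygenase 1, which breaks down heme. It read 0.35, 0.11 and -0.09 with resveratrol and -1.34, -1.33 and -1.59 in the control. The groups did not overlap, and the difference was 1.54 (SE 0.13, adjusted p = 3.59e-05). *Gclc* encodes the catalytic subunit of the enzyme that limits glutathione synthesis and rose by 0.85 (SE 0.09, adjusted p = 0.00011). The cystine transporter gene *Slc7a11*, which supplies the cysteine for glutathione, rose by 1.26 (SE 0.10, adjusted p = 2.2e-05). Among the glutathione transferases, *Gstp1* rose by 1.91 and the microsomal *Mgst1* by 1.11. *Gsta5* rose by 1.91 too (SE 0.19, adjusted p = 9.31e-05), but *Gsta1*, *Gsta2* and *Gsta5* are close paralogs and a probe may read more than 1 of them.

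*Txnrd1*, which encodes thioredoxin reductase, read 1.86, 1.73 and 1.71 against 0.53, 0.31 and 0.33. All resveratrol arrays exceeded all control arrays, and the difference was 1.38 (SE 0.10, adjusted p = 1.36e-05). The thioredoxin gene *Txn1* rose by 0.61 and the peroxiredoxin gene *Prdx1* by 0.74. *Pgd* and *Me1*, for 2 enzymes that make NADPH, rose by 1.28 and 0.61. The ferritin genes *Ftl1* and *Fth1*, whose products store iron, rose by 0.79 and 0.36. *Keap1*, the gene for the repressor of Nrf2, rose by 0.70 (SE 0.07, adjusted p = 8.12e-05). *Nfe2l2*, which encodes Nrf2 itself, had a log2 fold change of 0.20 that did not pass the test (adjusted p = 0.281).

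The promoters of these genes were searched because the genes moved together. RefSeq promoter sequences on the GRCr8 assembly, running from 250 bases before to 50 bases after the start of each gene, were available for 31 of the 38 tested Nrf2 targets. Both strands were searched for TGACNNNGC, where N is any base, the core of the element that Nrf2 binds with its small Maf partners. It was found in 7 of the 31 promoters, which is 22.6%, and in 12.2% of all 27457 promoters. A match is a description of letters and neither a site of binding nor a cause. The stretches printed here show 3 of the genes that rose, selected for holding the motif before the start, with the motif in capitals and up to 40 bases on each side. *Gstp1* is shown at chr1:210769718-210769806 on the minus strand, *Prdx1* at chr5:135383731-135383819 on the plus strand, and *Me1* at chr8:96540363-96540451 on the minus strand. In *Prdx1* the capitals are the motif as read from the opposite strand.
Gstp1: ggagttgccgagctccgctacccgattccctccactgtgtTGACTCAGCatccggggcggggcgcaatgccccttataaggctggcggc
Prdx1: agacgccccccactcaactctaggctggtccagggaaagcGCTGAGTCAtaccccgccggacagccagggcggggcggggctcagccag
Me1: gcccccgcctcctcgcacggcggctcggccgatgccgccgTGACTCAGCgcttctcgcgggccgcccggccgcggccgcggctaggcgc

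Genes of mitosis fell. Of 36 listed genes, 32 had a named probe, 31 were tested and 30 fell, while limma called 0 higher and 0 were higher at an unadjusted p under 0.05. The median log2 fold change was -0.93, with -0.88 on slide 1 and -0.91 on slide 2, and leaving out any 1 array gave medians from -1.01 to -0.84. The members ranged from -1.28 for *Ccna2* to -0.54 for *Bub1*, a narrow range in which every tested member was negative. The member that did not pass, *Kif2c*, had a log2 fold change of -0.76 (adjusted p = 0.0708, and 0.0439 with the replicate block). In such bulk RNA, fewer dividing cells and less of these RNAs in each cell cannot be told apart.

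*Ccna2* encodes cyclin A2, which drives S phase and entry into mitosis. It read 1.35, 1.60 and 1.46 with resveratrol and 2.63, 2.80 and 2.81 in the control. The control arrays were all higher, and the difference was -1.28 (SE 0.09, adjusted p = 1.9e-05). *Ccnb1*, the gene for cyclin B1, the partner of Cdk1 at the entry into mitosis, read 0.44, 0.79 and 0.36 against 1.58, 1.61 and 1.45. These groups did not overlap either, and the difference was -1.02 (SE 0.14, adjusted p = 0.000911). *Cdk1* itself fell by 0.81 (SE 0.06, adjusted p = 3.01e-05).

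*Cdc20*, which activates the ubiquitin ligase that ends metaphase, was at -1.22 (SE 0.09, adjusted p = 2.52e-05). *Kif11* encodes the motor that separates the spindle poles and read 1.61, 1.65 and 1.63 against 2.87, 2.79 and 2.76. The replicates of each group lay close together and the groups far apart, and the difference was -1.18 (SE 0.06, adjusted p = 1.72e-06). *Cdca8*, for the borealin subunit of the chromosomal passenger complex, also was at -1.18 (SE 0.10, adjusted p = 3.17e-05). The proliferation marker *Mki67* was at -0.81 (SE 0.10, adjusted p = 0.000497). *Foxm1*, which encodes a transcription factor of G2 and mitosis genes, was at -0.60 (SE 0.09, adjusted p = 0.000911).

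Genes of DNA replication fell over a wider range. Of 37 listed genes, 34 were tested, and *Mcm5*, *Uhrf1* and *Chaf1a* had no named probe. The 34 had a median of -0.72, with -0.69 on slide 1 and -0.74 on slide 2, and ranged from -1.24 to -0.18. limma called 30 lower and 0 higher, and 0 were higher at an unadjusted p under 0.05. Among those that did not pass, *Rfc5*, *Rpa2* and *Tyms* were at -0.34, -0.32 and -0.18, and *Rfc5* and *Rpa2* passed with the replicate block (adjusted p = 0.000764 and 0.00135).

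The gene with the lowest value was *Tk1*, for the thymidine kinase of the salvage pathway, at -1.24 (SE 0.12, adjusted p = 7.05e-05). *Mcm6*, which encodes a subunit of the replicative helicase, read 0.07, -0.28 and -0.27 with resveratrol and 1.15, 1.13 and 0.83 in the control. All control arrays were higher, and the difference was -1.20 (SE 0.11, adjusted p = 8.5e-05). Its partners *Mcm3* and *Mcm2* were at -1.12 (SE 0.08, adjusted p = 1.8e-05) and -0.81 (SE 0.08, adjusted p = 0.000129). A second probe of *Mcm3* read -0.60 and did not pass (adjusted p = 0.0514). *Cdt1*, which licenses replication origins, was at -1.12 (SE 0.16, adjusted p = 0.000878). *Rrm2*, for the small subunit of ribonucleotide reductase, was at -0.87, and the sliding clamp gene *Pcna* at -0.49 (SE 0.06, adjusted p = 0.000411).

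Promoters of the cell division genes were searched in the same way, both strands and the same window. For mitosis genes the motifs were TTTGAA, the core of the cell cycle homology element, and CCAAT, which NF-Y binds. TTTGAA was found in 18 of 25 mitosis promoters, 72%, and in 18.1% of all promoters, and CCAAT in 19 of 25, 76%, and in 37.7% of all. For replication genes the E2F motifs TTTGGCGC and TTTCGCGC were searched, and 11 of 27 promoters, 40.7%, held at least 1 of them, against 0.841% of all promoters. The sequences printed here were selected for holding the motifs before the start, and the capitals mark every match on either strand, so that ATTGG is CCAAT as read from the opposite strand. They are *Cdc20* at chr5:137255800-137255925 on the minus strand, *Cdca8* at chr5:142483244-142483431 on the minus strand, and *Ccnb2*, for cyclin B2, at chr8:79981659-79981908 on the minus strand. In *Cdca8* the run TTTGAATTGG holds both motifs, which share a base.
Cdc20: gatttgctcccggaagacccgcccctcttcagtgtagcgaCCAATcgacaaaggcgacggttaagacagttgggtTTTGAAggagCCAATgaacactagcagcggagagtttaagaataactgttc
Cdca8: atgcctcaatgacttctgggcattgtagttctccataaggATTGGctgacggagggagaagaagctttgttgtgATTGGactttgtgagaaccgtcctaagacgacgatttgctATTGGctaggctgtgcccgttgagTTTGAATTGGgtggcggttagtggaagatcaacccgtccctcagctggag
Ccnb2: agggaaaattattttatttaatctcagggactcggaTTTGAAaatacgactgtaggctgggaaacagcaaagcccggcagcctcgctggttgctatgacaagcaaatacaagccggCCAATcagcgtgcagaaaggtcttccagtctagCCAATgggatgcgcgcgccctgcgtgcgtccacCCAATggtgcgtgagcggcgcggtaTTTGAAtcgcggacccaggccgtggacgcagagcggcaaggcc

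The replication promoters shown are *Mcm6* at chr13:42404440-42404531 on the minus strand, *Mcm2* at chr4:122918095-122918148 on the minus strand, *Gins1*, for a subunit of the helicase complex, at chr3:160184855-160184919 on the plus strand, and *Pola1*, for DNA polymerase alpha, at chrX:62342480-62342567 on the minus strand. In *Mcm6*, *Mcm2* and *Gins1* a match on each strand overlaps, which gives the longer run of capitals.
Mcm6: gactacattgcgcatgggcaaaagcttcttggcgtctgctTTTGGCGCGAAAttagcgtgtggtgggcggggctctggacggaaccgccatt
Mcm2: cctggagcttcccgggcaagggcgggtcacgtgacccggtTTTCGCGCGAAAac
Gins1: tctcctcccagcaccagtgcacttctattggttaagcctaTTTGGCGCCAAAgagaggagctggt
Pola1: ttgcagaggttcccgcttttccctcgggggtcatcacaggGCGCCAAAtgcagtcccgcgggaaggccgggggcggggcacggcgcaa

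Of 27 tested targets of p53 and inhibitors of cyclin-dependent kinases, 5 rose and 3 fell, the latter a share near the background, with a median of 0.16, at 0.15 on slide 1 and 0.14 on slide 2. *Cdkn1a*, the gene for p21 and the best known p53 target, read 5.66, 5.78 and 5.66 with resveratrol and 5.63, 5.64 and 5.63 in the control. The values of the groups lay close together, and the difference was 0.07 (SE 0.06, adjusted p = 0.535). *Cdkn1c*, for the inhibitor p57, which is active as muscle cells leave the cycle, read 0.02, 0.12 and -0.28 against 1.21, 1.22 and 0.94. Here all control arrays were higher, and the difference was -1.17 (SE 0.16, adjusted p = 0.000852). *Cdkn2c*, for the inhibitor p18, was at -0.68 (SE 0.09, adjusted p = 0.000592). The stress gene *Gadd45a* rose by 0.63 (SE 0.14, adjusted p = 0.0124, and 0.0512 without resveratrol replicate 1) and *Plk3*, for a stress kinase, by 0.60 (SE 0.13, adjusted p = 0.00886). Without resveratrol replicate 2, and also without control replicate 1, 3 members were higher in place of 5.

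**Figure D2:**
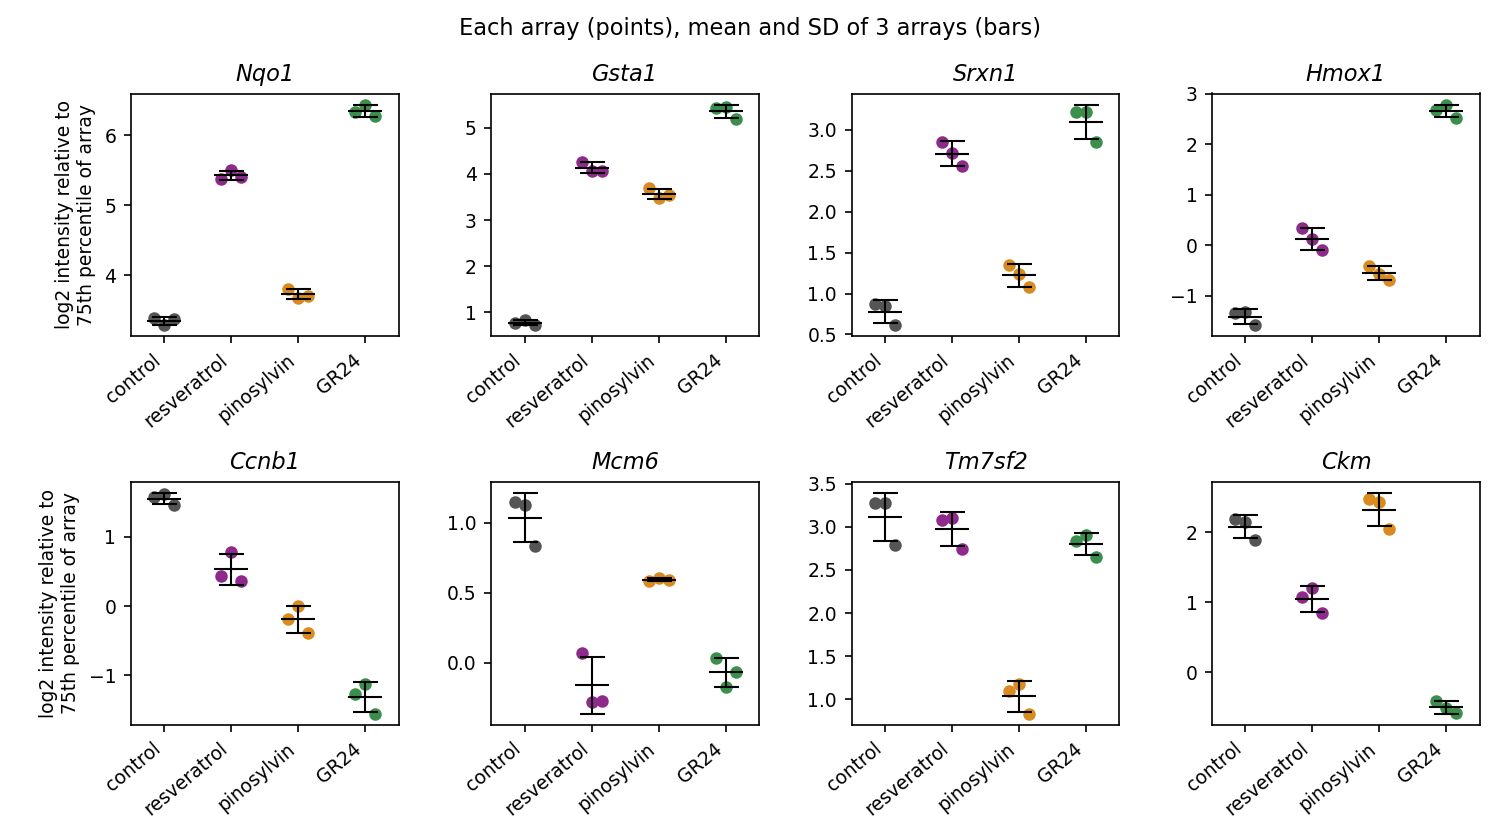
Points are log2 signals relative to the 75th percentile of the array, 1 per array, for 8 genes in the control, resveratrol, pinosylvin and GR24 groups, and bars are the mean and SD of the 3 arrays of a group. For *Nqo1* the resveratrol arrays lie at 5.37 to 5.50 and the control arrays at 3.28 to 3.38.

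Markers of myotubes, the labelled cell type, were looked up. *Myog*, *Ckm*, *Acta1*, *Actc1*, *Myh3*, *Tnnt3*, *Myl11*, *Des*, *Chrna1* and *Cav3* were all well above background on all 6 arrays. That does not tell myotubes from other cells, since 9 of 10 fibroblast and 5 of 6 smooth muscle markers were bright enough to be tested too. Of the 50 listed genes of the sarcomere and of contraction, 44 had a named probe and 42 were tested, with *Ttn*, *Neb* and *Ryr1* among those with no named probe. In these 42, 20 fell, while limma called 0 higher and 0 were higher at an unadjusted p under 0.05. The median was -0.30, with -0.34 on slide 1 and -0.24 on slide 2. With the replicate block 29 fell, and 13 fell without resveratrol replicate 3 and also 13 without control replicate 2. The median level of the 42 was 3.81, 3.71 and 3.57 on the resveratrol arrays and 4.17, 4.20 and 4.01 on the control arrays.

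*Ckm* encodes muscle creatine kinase, which buffers ATP in contracting muscle. It read 1.07, 1.21 and 0.84 with resveratrol and 2.19, 2.15 and 1.89 in the control. All control arrays were higher, and the difference was -1.04 (SE 0.14, adjusted p = 0.000597). Among myosin heavy chains, the adult fast forms *Myh4* and *Myh1* were at -1.08 (SE 0.13, adjusted p = 0.000394) and -0.86 (SE 0.09, adjusted p = 0.00013). The perinatal form *Myh8* was at -0.75. The embryonic form *Myh3* read 8.57, 8.57 and 8.51 against 8.84, 8.97 and 8.75. The difference of -0.30 (SE 0.07, adjusted p = 0.0169) was small and did not pass without resveratrol replicate 3 (adjusted p = 0.0615), without control replicate 2 (0.0615) or with quantile normalization (0.0588).

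The light chain gene *Myl3* was at -1.56 (SE 0.17, adjusted p = 0.000199), with 2 of 3 resveratrol arrays well above background, and at -0.53 with normexp and quantile normalization, where it passed. The cardiac alpha actin gene *Actc1*, which is active in immature skeletal muscle too, was at -0.80 (SE 0.08, adjusted p = 9.74e-05). The skeletal actin gene *Acta1* read 4.99, 5.06 and 4.93 against 5.29, 5.30 and 5.07. Its groups were apart, but the log2 fold change of -0.23 did not pass (SE 0.08, adjusted p = 0.0732, with 0.0306 with the replicate block and 0.0205 without control replicate 3). The calcium pump gene *Atp2a1* was at -0.64 and *Eno3*, for muscle enolase, at -0.68.

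Of 17 myogenic factor and fusion genes, 13 were tested, and *Mef2c*, *Tead4*, *Mymk* and *Mymx* had no named probe. Among the 13, 7 fell and 1 rose, with a median of -0.32, at -0.31 on slide 1 and -0.30 on slide 2. Fitted with the replicate block, 8 fell and 3 rose. Without resveratrol replicate 3, control replicate 1 or control replicate 2, each left out alone, 4 fell. In these 3 cases, and without resveratrol replicate 2, limma called 0 higher. *Myod1*, for the factor that commits cells to the muscle lineage, read -4.95, -5.30 and -5.14 with resveratrol and -4.04, -4.04 and -3.97 in the control. These signals were dim, and 2 of 3 resveratrol arrays were well above background, and the difference was -1.11 (SE 0.23, adjusted p = 0.00846). With normexp and quantile normalization *Myod1* was at the smaller -0.30 (adjusted p = 0.0222), and *Myf6* at -0.29 (adjusted p = 0.0445). *Itgb1bp2*, for the muscle protein melusin, was at -0.91 (SE 0.14, adjusted p = 0.00127), *Myf6*, for the myogenic factor MRF4, at -0.76 (SE 0.15, adjusted p = 0.0056), and *Stac3*, which is needed for excitation and contraction to be coupled, at -0.75 (SE 0.11, adjusted p = 0.000925).

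Myogenin, encoded by *Myog*, starts the program of terminal differentiation. *Myog* read 4.72, 4.67 and 4.65 with resveratrol and 5.24, 5.25 and 5.08 in the control. The control arrays were all higher, and the difference was -0.51 (SE 0.15, adjusted p = 0.0375). The call was lost without resveratrol replicate 1, 2 or 3 (adjusted p = 0.0823, 0.097 and 0.0954) and without control replicate 1 or 2 (0.107 and 0.108), and within slide 1 the adjusted p was 0.119.

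Markers of other cells were read as whole lists. Of 15 markers of undifferentiated muscle cells, 12 were tested, *Id3* and *Cd34* were not bright enough and *Spry1* had no named probe. In the 12, 1 rose and 3 fell, with a median of -0.05, at -0.07 on both slides, and the brightest was *Vim*. Their median level was -0.94, -0.90 and -0.95 on the resveratrol arrays and -0.95, -0.98 and -1.18 on the control arrays. *Mcam* and *Vim* were at -0.87 (SE 0.11, adjusted p = 0.000389) and -0.63 (SE 0.08, adjusted p = 0.000399). *Hes1*, a target of Notch, rose by 0.69 (SE 0.12, adjusted p = 0.00371), with 0.40 on slide 2. *Sox8* was at -0.78 (SE 0.21, adjusted p = 0.0269), and its call was lost without resveratrol replicate 1 or 3 (adjusted p = 0.0714 and 0.0939) and without control replicate 1 or 2 (0.0923 and 0.0684). It was lost with quantile normalization too (adjusted p = 0.089), and read -0.18 with normexp and quantile normalization (adjusted p = 0.154).

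Of 10 fibroblast markers, 9 were tested and *Tcf21* was not. In the 9, 1 rose and 2 fell, with a median of -0.18, at -0.11 on slide 1 and -0.16 on slide 2, and *Col1a2* was the brightest. With the replicate block 1 rose and 3 fell. The median level was 0.19, 0.12 and 0.03 with resveratrol and 0.10, 0.11 and 0.12 in the control. The collagen gene *Col1a1* was at -0.43 (SE 0.07, adjusted p = 0.00304), *Fap*, for a membrane protease, at -0.32 (SE 0.07, adjusted p = 0.0107, and 0.0578 within slide 1), and the growth factor receptor gene *Pdgfra* at 0.35 (SE 0.07, adjusted p = 0.00678, and 0.0514 in a fit to the 6 arrays compared alone). Of 6 smooth muscle markers 5 were tested, *Cnn1* was not, and *Tagln* was the brightest. In these 5, *Myh11* fell, the median was -0.21, at -0.28 on slide 1 and -0.07 on slide 2, and the median level was 4.06, 4.10 and 3.91 against 4.32, 4.45 and 4.19. With the replicate block 2 of these 5 fell. The log2 fold change of *Myh11*, -0.54 (SE 0.16, adjusted p = 0.0379), did not pass without resveratrol replicate 2 or 3 (adjusted p = 0.132 and 0.0932), without control replicate 1 or 2 (0.124 and 0.131) or with quantile normalization (0.171). Nor did *Myh11* pass with normexp and quantile normalization, at the smaller -0.23 (adjusted p = 0.132), or in the deposited table, at -0.35 (0.12). With trend and robust eBayes settings its adjusted p was 0.0539.

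Of 8 adipocyte markers 3 were tested. *Adipoq*, *Fabp4*, *Lep* and *Pparg* were not well above background on all 3 arrays of any group, and *Plin1* had no named probe. *Cebpa*, the brightest of the 3, rose by 0.43 (SE 0.07, adjusted p = 0.00185) and *Lpl* was at -0.47 (SE 0.07, adjusted p = 0.00167). Their median was 0.03, at 0.01 on slide 1 and 0.06 on slide 2, which turned to -0.01 without resveratrol replicate 1 and to -0.06 without control replicate 3. The median level was 0.58, 0.55 and 0.36 with resveratrol and 0.53, 0.58 and 0.61 in the control. The part of any of these cell types in the changes of the muscle and matrix genes was not tested.

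Genes of cholesterol synthesis and uptake fell in part. All 26 listed genes were tested, and 9 fell, with a median of -0.24, at -0.25 on slide 1 and -0.19 on slide 2. limma called 0 higher, and 2 were higher at an unadjusted p under 0.05. With the replicate block 13 fell and 2 rose. The number that fell was 5 without resveratrol replicate 1, 4 without resveratrol replicate 3, 3 without control replicate 1 and 5 without control replicate 2.

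*Idi1*, for an isomerase that makes isoprenoid units, was at -0.49 (SE 0.10, adjusted p = 0.00815), and *Sqle*, for squalene epoxidase, at -0.48 (SE 0.09, adjusted p = 0.00508). *Hmgcs1*, for HMG-CoA synthase, was at -0.62 (SE 0.15, adjusted p = 0.0168), a call lost without resveratrol replicate 3 (adjusted p = 0.0648) and without control replicate 1 or 2 (0.0615 and 0.0659). *Dhcr7*, for an enzyme of the last steps of the pathway, was at -0.51 (SE 0.16, adjusted p = 0.0499), lost without resveratrol replicate 1 or 3 (adjusted p = 0.119 and 0.154) and without control replicate 1 or 2 (0.147 and 0.13).

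In 15 tested genes of fatty acid synthesis 1 rose and 2 fell, a share near the background. The median of -0.02, at -0.07 on slide 1 and 0.07 on slide 2, turned positive with quantile normalization (0.04), with normexp and quantile normalization (0.03) and in the deposited table (0.07). *Elovl6*, for an elongase of long fatty acids, read 0.32, 0.59 and 0.53 with resveratrol and 1.56, 1.34 and 1.61 in the control. All control arrays were higher, and the difference was -1.02 (SE 0.11, adjusted p = 0.000143). The desaturase gene *Scd* was at -0.33 (SE 0.10, adjusted p = 0.0433), a call lost without resveratrol replicate 1 or 3 (adjusted p = 0.108 and 0.134) and without control replicate 1 or 2 (0.108 and 0.14). *Scd2* was at 0.26 (SE 0.06, adjusted p = 0.016), lost without resveratrol replicate 2 (adjusted p = 0.0592). The replicate block had 3 members higher and 3 lower.

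Targets of ATF4, the factor that answers amino acid shortage and stress of the endoplasmic reticulum, rose in part. Of 42 listed genes 38 were tested, 15 rose and 2 fell, with a median of 0.22, at 0.20 on slide 1 and 0.25 on slide 2. With the replicate block 20 rose and 4 fell. Without resveratrol replicate 1, resveratrol replicate 3, control replicate 1 or control replicate 2, limma called 0 lower, and without resveratrol replicate 2 it called 1. *Gdf15*, for a secreted stress cytokine, read -3.72, -3.79 and -4.37 with resveratrol and -5.42, -6.11 and -6.23 in the control. None of the control arrays was well above background there, so the change is given as a bound against the lowest signal that was well above background on the control arrays: *Gdf15* was at least 3.09-fold higher (adjusted p = 0.000809). With normexp background correction its log2 fold change was 0.54 (adjusted p = 0.034), smaller than this bound.

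*Atf5*, for a factor related to ATF4, read 4.92, 4.75 and 4.65 with resveratrol and 3.83, 3.82 and 3.65 in the control. All resveratrol arrays were higher, by 1.01 (SE 0.09, adjusted p = 4.61e-05). *Trib3*, for a pseudokinase that dampens the response, rose by 0.88 (SE 0.13, adjusted p = 0.00114), *Pck2*, for mitochondrial PEP carboxykinase, by 0.82 (SE 0.10, adjusted p = 0.000366), and *Asns*, for asparagine synthetase, by 0.74 (SE 0.12, adjusted p = 0.00244). *Ddit3*, for the factor CHOP, rose by 0.41 (SE 0.07, adjusted p = 0.00323). The members that fell were *Cth*, for an enzyme of cysteine synthesis, at -0.54, and *Stc2*, for a secreted glycoprotein, at -0.42. *Atf4* itself was at -0.06 (SE 0.09, adjusted p = 0.769).

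The ATF4 promoters were searched for TGATGNAA, the core of the element that ATF4 binds with C/EBP partners. It was found in 10 of 34 promoters, 29.4%, and in 3.82% of all promoters. The stretches of *Trib3* at chr3:161275534-161275594 on the minus strand and *Pck2* at chr15:32997603-32997661 on the plus strand were selected for holding it before the start and show it in capitals, in both cases as read from the opposite strand.
Trib3: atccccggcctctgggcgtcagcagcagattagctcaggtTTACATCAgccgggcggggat
Pck2: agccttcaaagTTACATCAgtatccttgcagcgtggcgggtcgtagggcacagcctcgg

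Of 21 tested chaperones and helpers of the endoplasmic reticulum, 6 rose and 1 fell, with a median of 0.14, at 0.20 on slide 1 and 0.14 on slide 2. There were 9 higher with the replicate block. *Derl3*, for a protein that takes misfolded proteins out of the endoplasmic reticulum, was at least 2.58-fold higher (adjusted p = 7.67e-05), with no control array well above background, and had a smaller log2 fold change of 0.56 with normexp (adjusted p = 0.00147). *Hyou1* and *Pdia4*, for a chaperone and a disulfide isomerase, rose by 0.47 (SE 0.09, adjusted p = 0.00461) and 0.44 (SE 0.06, adjusted p = 0.001). *Hspa5*, for the main chaperone BiP, rose by 0.31 (SE 0.07, adjusted p = 0.0162), a call lost without resveratrol replicate 1 (adjusted p = 0.0658) and without control replicate 1 (0.0541). *Pdia6*, for another disulfide isomerase, was the member that fell, at -0.48 (SE 0.07, adjusted p = 0.00151).

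In 17 tested heat shock genes 3 rose, with a median of 0.02, at 0.03 on both slides, and limma called 0 lower, while 2 were lower at an unadjusted p under 0.05. The 3 were the small heat shock gene *Hspb8* at 0.35 (adjusted p = 0.0431), the co-chaperone gene *Chordc1* at 0.32 (adjusted p = 0.0437) and *Bag3*, which guides misfolded proteins to autophagy, at 0.26 (adjusted p = 0.0411). None of these calls was steady. Without any 1 of the 6 arrays, at most 1 heat shock member was called higher: 1 without resveratrol replicate 3, 1 without control replicate 1, and 0 in the other cases. Called lower was 1 member without resveratrol replicate 1 and 1 without control replicate 3. *Hspa1a*, for the inducible Hsp70, read -4.12, -4.72 and -4.56 against -3.82, -4.15 and -4.29. The groups overlapped, at -0.38 (adjusted p = 0.151, with 0.0283 with the replicate block and 0.0386 without resveratrol replicate 1).

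Resveratrol is known for work on sirtuins and on mitochondrial biogenesis. *Sirt1* and *Sirt2* had no named probe, and *Ppargc1a* and *Esrrg* were not well above background on all 3 arrays of any group. Of 25 tested genes, 3 rose and 2 fell, which is near the background, with a median of 0.13, at 0.14 on slide 1 and 0.07 on slide 2. The block for the replicate had 5 higher. Leaving out resveratrol replicate 1, resveratrol replicate 2 or control replicate 3 left 1 higher, and leaving out resveratrol replicate 3 or control replicate 1 left 0 lower. Without resveratrol replicate 1, resveratrol replicate 2 or control replicate 2, 1 was lower. *Nampt*, for the enzyme that limits NAD salvage, was at 0.13 (SE 0.14, adjusted p = 0.618), with a second probe at -0.46 (adjusted p = 0.41). *Tfam*, for the factor that packs and transcribes mitochondrial DNA, was at 0.21 (SE 0.07, adjusted p = 0.0815, and 0.0499 with the slide as a block).

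*Esrra*, for a nuclear receptor of energy metabolism, read 4.32, 4.30 and 4.24 with resveratrol and 3.93, 3.88 and 4.01 in the control. The groups were apart by 0.35 (SE 0.07, adjusted p = 0.00893). *Twnk*, for the helicase of mitochondrial DNA, rose by 0.44 (SE 0.11, adjusted p = 0.021), a call lost without resveratrol replicate 1 or 2 (adjusted p = 0.0809 and 0.0586) and without control replicate 3 (0.0657). *Nrf1*, for nuclear respiratory factor 1, was at -0.62 (SE 0.15, adjusted p = 0.0183), lost without resveratrol replicate 2 or 3 (adjusted p = 0.0733 and 0.0621) and without control replicate 1 or 2 (0.0603 and 0.068), and its second probe read -0.39 (adjusted p = 0.43). *Sirt4*, for a mitochondrial sirtuin, was at -0.39 (SE 0.10, adjusted p = 0.02). It was lost without resveratrol replicate 1 or 3 (adjusted p = 0.0723 and 0.0726), without control replicate 1 (0.0791) and with quantile normalization (0.0535).

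The 33 tested subunits of the respiratory chain had a median of 0.02, with -0.01 on slide 1 and 0.05 on slide 2, and ranged from -0.11 to 0.29. The highest was *Cox6a2*, the muscle form of a subunit of complex IV, at 0.29 (adjusted p = 0.0675, and 0.00151 with the replicate block). Of 22 tested genes of fatty acid oxidation 1 rose and 1 fell, shares below the background, with a median of 0.10, at 0.12 on slide 1 and 0.04 on slide 2. The replicate block had 6 higher and 3 lower, and without control replicate 3, 2 fell. *Mlycd*, for malonyl-CoA decarboxylase, rose by 0.35 (SE 0.07, adjusted p = 0.00747). *Cd36*, for a fatty acid transporter, was at -0.35 (SE 0.08, adjusted p = 0.01), but with quantile normalization at -0.20 (adjusted p = 0.431) and in the deposited table at -0.08 (adjusted p = 0.592). *Pdk4* was not bright enough to be tested.

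Of 25 tested genes of AMPK, insulin signalling and glucose uptake, 6 rose and 2 fell, with a median of 0.12, at 0.11 on slide 1 and 0.06 on slide 2. Without control replicate 3, 3 rose, and without resveratrol replicate 3, control replicate 1 or control replicate 2, 1 fell. *Prkaa2*, for the catalytic alpha 2 subunit of AMPK that prevails in muscle, read -5.70, -4.97 and -5.35 with resveratrol and -3.65, -3.81 and -3.42 in the control. No resveratrol array was well above background. *Prkaa2* was called lower (adjusted p = 0.00121), and no size is given for the decrease. *Slc2a3*, for the glucose transporter GLUT3, read 4.42, 4.42 and 4.30 against 3.79, 3.84 and 3.65. All resveratrol arrays were higher, by 0.62 (SE 0.07, adjusted p = 0.000287). *Pik3r1*, for the regulatory subunit of PI3 kinase, rose by 0.59 (SE 0.12, adjusted p = 0.00716). *Slc2a4*, for the insulin-responsive transporter GLUT4, was at -0.07 (adjusted p = 0.55), and *Txnip*, a sensor of glucose, at 0.23 (adjusted p = 0.545). *Arrdc4*, a relative of *Txnip*, was at 0.58 (SE 0.15, adjusted p = 0.0268), lost without resveratrol replicate 2 or 3 (adjusted p = 0.0973 and 0.0582) and without control replicate 2 or 3 (0.0978 and 0.0626). The call of *Arrdc4* was also lost within slide 1 (adjusted p = 0.0784) and with normexp, at the smaller 0.31 (adjusted p = 0.0602).

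Of 25 listed inflammatory genes 17 were tested, 5 rose and 2 fell, the latter a share near the background. The median of -0.02, at 0.02 on slide 1 and -0.04 on slide 2, turned positive with quantile normalization (0.05), with normexp (0.02), with both (0.03) and in the deposited table (0.05). *Tnf*, *Il1b*, *Nos2*, *Ccl7*, *Ccl20* and *Cxcl2* were not bright enough to be tested. Without resveratrol replicate 2 or 3, or control replicate 1 or 2, 1 member fell. *Ccl2*, for a chemokine that draws monocytes, read -1.46, -1.87 and -1.76 with resveratrol and -3.34, -3.16 and -3.28 in the control. The groups were far apart, and the difference was 1.57 (SE 0.11, adjusted p = 1.5e-05), or 0.97 with normexp. *Cxcl1*, for a chemokine that draws neutrophils, rose by 1.39 (SE 0.09, adjusted p = 1.01e-05), and the interferon-responsive *Cxcl10* by 0.82 (SE 0.16, adjusted p = 0.00658). *Il1rl1*, for the receptor of interleukin 33, was at -0.47 (SE 0.10, adjusted p = 0.0114), with a second probe at -0.09 (adjusted p = 0.949). *Il6* was at -0.06 (adjusted p = 0.819) and *Ptgs2*, for cyclooxygenase 2, at -0.49 (adjusted p = 0.0813, with 0.0326 with the replicate block and 0.0116 without resveratrol replicate 1).

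Of 13 tested hypoxia genes 3 rose, with a median of 0.05, at 0.04 on slide 1 and 0.10 on slide 2, while limma called 0 lower and 0 were lower at an unadjusted p under 0.05. *Adm*, for the vasodilator adrenomedullin, read 2.85, 2.72 and 2.77 with resveratrol and 1.19, 1.31 and 1.15 in the control. All resveratrol arrays were higher, by 1.56 (SE 0.07, adjusted p = 7.69e-07). The growth factor gene *Vegfa* rose by 0.60 (SE 0.07, adjusted p = 0.000218) and *Ddit4*, for an inhibitor of mTOR, by 0.29 (SE 0.06, adjusted p = 0.00795, and 0.0781 as the mean over its probes).

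Resveratrol is known as a ligand of the Ah receptor. Of 10 genes of this pathway 7 were tested, 2 rose, and the median was 0.05, with -0.02 on slide 1 and 0.16 on slide 2, -0.02 without control replicate 1 and -0.00 without control replicate 3. limma called 0 lower, and 1 was lower at an unadjusted p under 0.05. *Cyp1a1* and *Cyp1a2*, its best known targets, were not bright enough to be tested. *Ahr*, for the receptor itself, read -3.88, -3.74 and -3.73 with resveratrol and -4.89, -5.42 and -4.87 in the control. It rose by 1.27 (SE 0.15, adjusted p = 0.000297), with 1 of 3 control arrays well above background, and with normexp by the smaller 0.33 (adjusted p = 0.0112). The other member that rose was *Nqo1*, a target of Nrf2 too. *Cyp1b1* was at 0.07 (SE 0.31, adjusted p = 0.938). In the promoters of 6 of these 7 genes, GCGTG, the core of the element that the receptor binds, was found in 5, 83.3%, and in 31.1% of all promoters.

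Of 17 genes for conjugation and efflux of foreign compounds, 10 were tested, 3 rose and 1 fell, with a median of 0.24, at 0.40 on slide 1 and 0.27 on slide 2. Without resveratrol replicate 1, and also without resveratrol replicate 2, 1 rose. *Sult1a1*, for a sulfotransferase of phenols, averaged -2.38 (SD 0.01) with resveratrol and -0.92 (SD 0.10) in the control. All control arrays were higher, and the difference was -1.47 (SE 0.07, adjusted p = 9.28e-07). *Abcb1b*, for the efflux pump P-glycoprotein, rose by 0.95 (SE 0.08, adjusted p = 4.68e-05). *Abcc4*, for another pump, rose by 0.56 (SE 0.13, adjusted p = 0.0147), a call lost without resveratrol replicate 1 or 2 (adjusted p = 0.0548 and 0.0556). *Abcc5* was at 0.34 (SE 0.10, adjusted p = 0.041), lost without resveratrol replicate 1, 2 or 3 (adjusted p = 0.143, 0.0619 and 0.066) and without control replicate 1 or 3 (0.0795 and 0.112). *Ugt1a6* was at 0.05, *Abcc2* at 0.13 and *Abcc3* at 0.11, none past the test (adjusted p = 0.738, 0.845 and 0.896). *Abcc3* was called without control replicate 3, at 0.60 (adjusted p = 0.0251), and within slide 1, at 0.73 (adjusted p = 0.0181), while slide 2 read -1.14 with no test.

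Genes of the extracellular matrix and of TGF-beta signalling leaned lower. Of 28 tested genes 8 fell and 2 rose, with a median of -0.19, at -0.19 on slide 1 and -0.23 on slide 2. With the replicate block 11 fell and 2 rose. The number that fell was 5 without resveratrol replicate 2, 4 without resveratrol replicate 3, 4 without control replicate 1 and 5 without control replicate 2. *Postn*, for the matrix protein periostin, was at -0.67 (SE 0.12, adjusted p = 0.00339), or -0.29 with normexp and quantile normalization (adjusted p = 0.0509), and *Timp1*, for an inhibitor of matrix proteases, read 5.23, 5.42 and 5.20 against 5.82, 5.92 and 5.76. All control arrays of *Timp1* were higher, and the difference was -0.55 (SE 0.09, adjusted p = 0.00158). *Smad7*, for an inhibitor of TGF-beta signalling, rose by 0.63 (SE 0.09, adjusted p = 0.000899). *Tgfbi*, which TGF-beta induces, was at -0.44 (SE 0.10, adjusted p = 0.0155), lost without resveratrol replicate 1 or 3 (adjusted p = 0.0515 and 0.061) and without control replicate 1 or 2 (0.0615 and 0.0529). *Ccn2* was at -0.05 (adjusted p = 0.72).

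Of 14 tested clock genes 5 rose and 1 fell, with a median of 0.06, at 0.04 on slide 1 and 0.06 on slide 2. Within slide 1, 3 rose. The repressor genes *Nfil3* and *Bhlhe40* rose by 0.60 (SE 0.11, adjusted p = 0.00395) and 0.57 (SE 0.10, adjusted p = 0.00282), and *Nr1d2*, for the receptor Rev-erb beta, by 0.48 (SE 0.10, adjusted p = 0.00776). *Npas2*, for a partner of Bmal1, was at -0.50 (SE 0.09, adjusted p = 0.00324), or -0.26 with normexp and quantile normalization. *Per2* and *Dbp* were at 0.11 and -0.13 and did not pass (adjusted p = 0.375 and 0.519).

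Of 20 tested genes of autophagy and lysosomes 4 rose, and 7 with the replicate block, with a median of 0.06, at 0.05 on slide 1 and 0.13 on slide 2. Over the alternatives, the number that rose ran from 1 to 7. limma called 0 lower, 1 without control replicate 3, and 1 was lower at an unadjusted p under 0.05. *Sqstm1*, for the cargo receptor p62 and itself a target of Nrf2, read 6.17, 6.11 and 6.07 with resveratrol and 5.36, 5.41 and 5.31 in the control. The groups were apart by 0.76 (SE 0.07, adjusted p = 6.14e-05), while another probe of the gene read 0.01 (adjusted p = 0.969). *Gabarapl1* and *Map1lc3a*, for proteins of the autophagosome membrane, rose by 0.44 (SE 0.10, adjusted p = 0.0104) and 0.35 (SE 0.08, adjusted p = 0.0109). Both calls were lost in a fit to the 6 arrays compared alone (adjusted p = 0.0607 and 0.0522). *Atg12* was at 0.34 (SE 0.10, adjusted p = 0.0493), a call lost without resveratrol replicate 2 or 3 (adjusted p = 0.15 and 0.138) and without control replicate 1, 2 or 3 (0.0872, 0.144 and 0.0868). It was also lost with quantile normalization, with normexp and with both (adjusted p = 0.0515, 0.105 and 0.0787). The deposited table and slide 1 alone lost it too (adjusted p = 0.0892 and 0.117).

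Of 10 tested genes of muscle atrophy and Foxo factors 2 rose and 1 fell, with a median of 0.05, at 0.01 on slide 1 and 0.14 on slide 2. *Sesn3*, for the stress protein sestrin 3, rose by 1.30 (SE 0.13, adjusted p = 0.000112), or 0.72 with normexp. *Trim63*, for the ubiquitin ligase MuRF1 that marks sarcomere proteins, averaged -2.93 (SD 0.09) with resveratrol and -2.39 (SD 0.13) in the control. The control arrays were all higher, and the difference was -0.54 (SE 0.10, adjusted p = 0.00454), or -0.26 with normexp and quantile normalization. *Fbxo32*, for atrogin 1, was at 0.04 (adjusted p = 0.912). *Klf15*, a target of glucocorticoids, was at 0.46 (SE 0.13, adjusted p = 0.0335), lost without resveratrol replicate 1, 2 or 3 (adjusted p = 0.0896, 0.0567 and 0.1), without control replicate 1 or 2 (0.12 and 0.0537) and within slide 1 (0.117), so that 1 member was higher in those cases.

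Among the largest increases, several genes stood outside these groups as listed here. *Aox1*, for aldehyde oxidase, and *Ggt1*, for the gamma-glutamyltransferase that takes glutathione apart outside the cell, rose by 1.76 (SE 0.11, adjusted p = 8.9e-06) and 1.74 (SE 0.10, adjusted p = 3.55e-06). The publication counts *Ggt1* among the targets of Nrf2. *Dhrs3*, for a retinal reductase, rose by 1.72 (SE 0.09, adjusted p = 1.82e-06) and *Lgals2*, for a galectin, by 1.59 (SE 0.07, adjusted p = 5.7e-07).

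Other genes had no control array well above background. The gene *Evi2b*, for a membrane protein of blood cells, was at least 2.43-fold higher (adjusted p = 7.05e-05), and *Serpinf2*, for antiplasmin, at least 2.22-fold (adjusted p = 0.000203). *Piwil2*, for a protein that binds small RNAs of the germ line, was at least 2.43-fold higher too (adjusted p = 0.0017), but with normexp background correction it was at 0.34 and did not pass (adjusted p = 0.0644). *Evi2b* and *Serpinf2* passed with normexp at log2 fold changes of 0.32 and 0.35 (adjusted p = 0.0195 and 0.0197), which are smaller than their bounds. The bounds hold for the signals as processed here.

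Among the largest decreases, *Aspg*, for an asparaginase, read -4.80, -4.63 and -4.69 with resveratrol and -2.07, -2.08 and -2.07 in the control. The groups were apart by -2.63 (SE 0.12, adjusted p = 8.1e-07), and by -1.22 with normexp and quantile normalization, where *Aspg* still passed. *Nox1*, for an NADPH oxidase that makes superoxide, read 0.40, 0.46 and 0.53 against 2.09, 2.42 and 2.11. All control arrays were higher, and the difference was -1.74 (SE 0.11, adjusted p = 6.92e-06). *Cyp2j4*, for a cytochrome P450 of fatty acids, was at -1.91 (SE 0.09, adjusted p = 1.5e-06), and *Dhrs7c*, for a reductase of the sarcoplasmic reticulum, at -1.68 (SE 0.12, adjusted p = 1.85e-05). The kallikrein genes *Klk1c2*, *Klk1* and *Klk1c8* were at -1.69, -1.62 and -1.57, and as close paralogs they may share signal. *H1f5*, for a linker histone, was at -1.64 (SE 0.18, adjusted p = 0.000175).

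The remaining genes of this rank were *Sytl3*, for a protein of vesicle traffic, at -1.58 (SE 0.16, adjusted p = 0.000119), and *Smim5*, for a small membrane protein, at -1.57 (SE 0.20, adjusted p = 0.000522). *Cfap52*, for a protein of cilia, was at -1.81 (SE 0.34, adjusted p = 0.00488) and did not pass within slide 1 (adjusted p = 0.0526). *Tnni3*, for the cardiac form of troponin I, was at -1.55 (SE 0.35, adjusted p = 0.0126) and did not pass without resveratrol replicate 3 (adjusted p = 0.0502). It was at -0.73 with normexp and quantile normalization, where it passed. Some genes had no resveratrol array well above background, and as with *Prkaa2* no size is given for them. *Fmo1*, for a flavin monooxygenase, was called lower (adjusted p = 6.98e-05), as were *Rgs22*, for a regulator of G proteins (adjusted p = 0.000104), *Dusp26*, for a phosphatase (adjusted p = 2.45e-05), and *Fgd2*, for an activator of Cdc42 (adjusted p = 0.00227).

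Resveratrol and pinosylvin were compared directly at the same 60 µM and 24 h. Of the 10740 tested genes 887 were higher with resveratrol, which is 8.26%, and 873 lower, which is 8.13%, with a median of -0.00. The Nrf2 targets differed, with 29 of 38 higher than with pinosylvin and a median difference of 0.56. Against the shared control arrays, the median of these 38 was 0.75 with resveratrol and 0.27 with pinosylvin. *Nqo1* read 3.80, 3.67 and 3.70 with pinosylvin, above the control by 0.38 (adjusted p = 0.00414), and was higher with resveratrol by 1.70 (SE 0.07, 95% interval 1.55 to 1.85, adjusted p = 2.6e-06). *Srxn1* was higher by 1.49 (SE 0.13, 95% interval 1.20 to 1.77, adjusted p = 5.82e-05). For other targets the compounds were nearer: *Gsta1* differed by 0.56 (95% interval 0.35 to 0.77, adjusted p = 0.00316), and for *Fth1* no difference was called, at -0.02 (95% interval -0.15 to 0.11).

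Of the cholesterol synthesis genes, 21 of 26 were higher with resveratrol than with pinosylvin, with a median difference of 0.87. The medians against the shared control were -0.24 with resveratrol and -1.17 with pinosylvin. *Tm7sf2*, for a sterol reductase, read 3.08, 3.11 and 2.75 with resveratrol, 3.27, 3.28 and 2.79 in the control and 1.09, 1.18 and 0.83 with pinosylvin. The resveratrol and control arrays overlapped and the pinosylvin arrays were the lowest. The difference between the stilbenes was 1.94 (SE 0.16, 95% interval 1.60 to 2.29, adjusted p = 4.4e-05), while resveratrol and control differed by -0.14 (adjusted p = 0.647). *Dhcr7* was higher with resveratrol than with pinosylvin by 1.39 (SE 0.16, 95% interval 1.05 to 1.74, adjusted p = 0.000286).

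Mitosis genes were lower with both stilbenes, and 30 of 31 were higher with resveratrol than with pinosylvin, with a median difference of 0.77. Against the shared control the medians were -0.93 and -1.64. For the replication genes the medians were -0.72 with resveratrol and -0.68 with pinosylvin, and the direct comparison called 8 of 34 higher and 6 lower, with a median difference of 0.06. The helicase gene *Mcm6* was among the lower ones, at -0.75 (95% interval -1.01 to -0.50, adjusted p = 0.0018). *Gins1* was at 0.06 (95% interval -0.09 to 0.21), a difference that was not called, which does not show that the compounds act alike.

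Sarcomere genes were lower with resveratrol than with pinosylvin in 30 of 42 cases, with a median difference of -0.46, and their medians against the shared control were -0.30 and 0.12. *Ckm* differed by -1.28 (95% interval -1.59 to -0.98, adjusted p = 0.00021) and *Myog* by -1.24 (95% interval -1.56 to -0.92, adjusted p = 0.000375). *Csrp3*, for a protein of the Z disc, read 2.42, 2.44 and 2.26 with resveratrol, 3.55, 3.43 and 3.22 in the control and 4.16, 4.03 and 3.98 with pinosylvin. No groups overlapped, the control lying between the stilbenes, which differed by -1.68 (SE 0.12, 95% interval -1.95 to -1.42, adjusted p = 2.32e-05). *Dhrs7c*, of the sarcoplasmic reticulum, differed by -1.76 (SE 0.12, adjusted p = 2.33e-05) and *Cox6a2* by -1.13 (95% interval -1.34 to -0.92, adjusted p = 5.66e-05).

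Further genes with large differences between the stilbenes had varied roles. *S100a3*, for a calcium-binding protein, read 0.15, 0.13 and 0.14 with resveratrol, 1.12, 1.18 and 1.14 in the control and 2.49, 2.31 and 2.46 with pinosylvin. It stood below the control with resveratrol and above it with pinosylvin, a difference of -2.28 (SE 0.07, 95% interval -2.42 to -2.13, adjusted p = 1.5e-07). *Cxcl10* stood on the other side, above the control with resveratrol and below it with pinosylvin, and differed by 1.93 (SE 0.16, adjusted p = 5.56e-05). *Neil3*, for a DNA glycosylase, was higher with resveratrol by 1.38. *F13a1*, for a subunit of clotting factor XIII, was at -1.98, *Ovol3*, for a zinc finger protein, at -1.85, *Aspg* at -1.81, *Sox8* at -1.77, and *Cmbl*, for a hydrolase, at -1.75. With normexp and quantile normalization these 5 kept their calls at the smaller -1.09, -0.99, -0.66, -0.63 and -0.69, and *Neil3* was at 0.60 with normexp. For the ATF4 targets *Atf5* and *Wars1*, the latter for an aminoacyl-tRNA synthetase, the differences were -0.09 (95% interval -0.28 to 0.10) and -0.00 (95% interval -0.28 to 0.28), and neither was called.

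**Figure D3:**
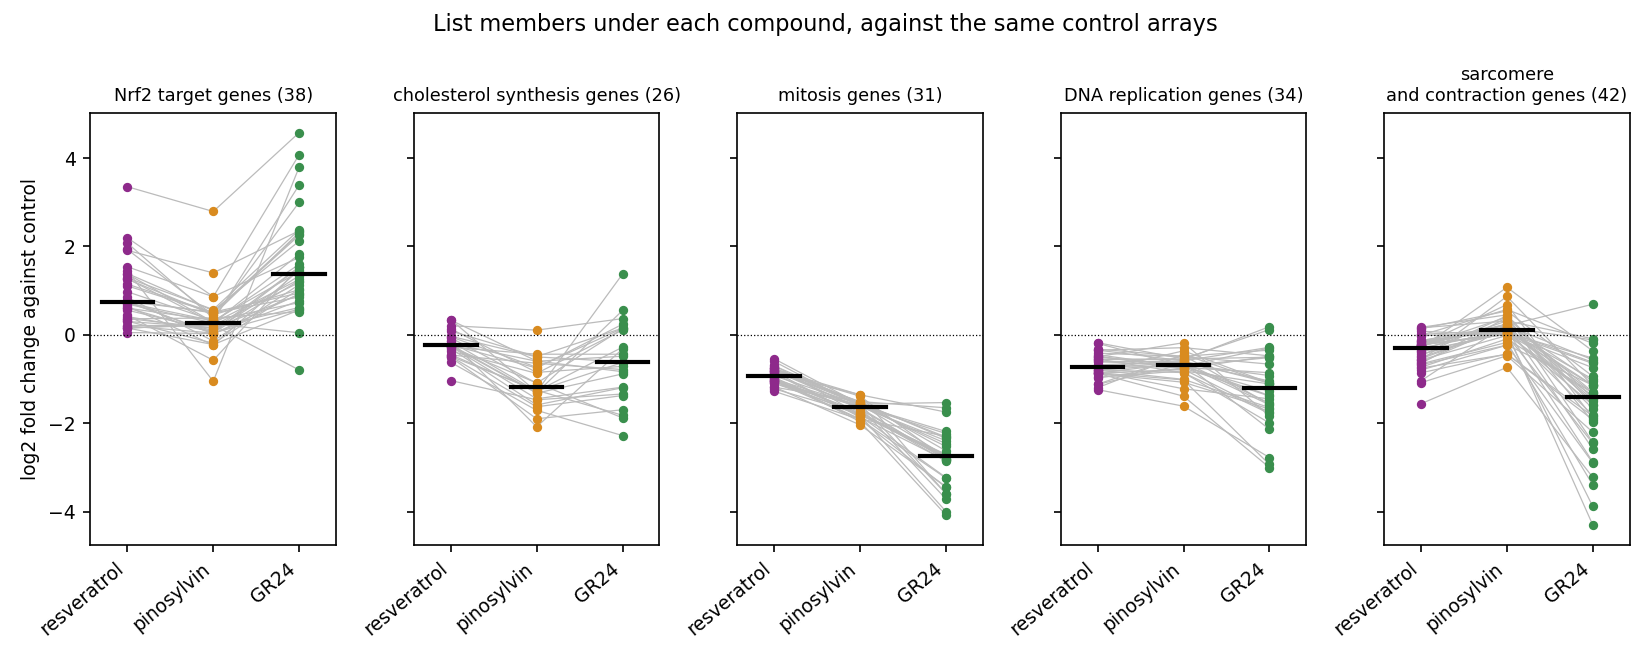
Each line joins the log2 fold changes of 1 gene against the shared control arrays with resveratrol, pinosylvin and GR24, for 5 gene groups, and bars are the medians. For the Nrf2 targets the medians are 0.75, 0.27 and 1.38, and for the sarcomere genes -0.30, 0.12 and -1.40.

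GR24, at the same dose and time, was the more distant compound. Of the 10740 tested genes 2698 were higher with resveratrol than with GR24, which is 25.1%, and 3398 lower, which is 31.6%, with a median of -0.05. Nrf2 targets were lower with resveratrol than with GR24 in 29 of 38 cases and higher in 2, with a median difference of -0.55. *Hmox1* read 2.67, 2.78 and 2.52 with GR24, above the resveratrol arrays, and the difference was -2.54 (SE 0.13, adjusted p = 1.11e-07). All 31 tested mitosis genes were higher with resveratrol than with GR24, with a median difference of 1.82. Sarcomere genes were higher with resveratrol in 35 of 42 cases and lower in 1, with a median difference of 1.10.

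*Myog* read -0.38, -1.05 and -0.50 with GR24, and was higher with resveratrol by 5.32 (SE 0.15, adjusted p = 2.23e-09), the largest difference between these compounds among genes well above background on the 6 arrays compared. *Stac3* was higher by 4.47, *Marcks*, for a membrane-bound substrate of protein kinase C, by 4.25, *Acta2*, for smooth muscle actin, by 4.17, and *Hspb3*, for a small heat shock protein of muscle, by 4.09. *Anxa10* and *Mybph*, for an annexin and a myosin-binding protein, were higher by 4.04 and 3.86. On the other side, *Plcd4*, for a phospholipase C, was at -3.59, *Vgf*, for a secreted neuropeptide precursor, at -3.43, *C3h15orf48*, for a mitochondrial protein, at -3.32, *Mt2A*, for a metallothionein, at -3.02, *Rell2* at -2.88, *Gzmc*, for a granzyme, at -2.78 and *Cd68*, for a lysosomal membrane protein, at -2.52. Sizes were smaller with normexp and quantile normalization, where *Stac3* was at 3.04, *Plcd4* at -2.02, *Vgf* at -2.28, *C3h15orf48* at -1.70 and *Gzmc* at -1.53, all still called.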

How the data were processed

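RNA of 12 samples, 3 per group, was measured on 1-colour Agilent arrays. The authors deposited the output of Agilent Feature Extraction 12.0.0.7, a version given in the submitters' processing notes, with 1 file per array. Its deposited processed signal is an intensity from which the local background had been subtracted, with no normalization between arrays, and its deposited 0 or 1 marks (for saturated spots, for outliers and for spots well above background) are of another kind, with no unit (other). The authors also deposited a table of log2 values, normalized with limma, for 25848 probes, of which 24209 were tested here, and it served as an alternative. Its background correction, centring and filter are not stated.

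Outlier spots were dropped, log2 of the processed signal was averaged over the spots of a probe, and each array was centred on its own 75th percentile. A probe counted as well above background on an array where at least 50% of its spots did. Probes reaching this on the 3 arrays of some group, 24278 in number, were tested with limma 3.58.1 in R 4.3.3, with 1 mean per group over all 12 arrays, eBayes with 8 residual degrees of freedom, and Benjamini-Hochberg adjustment at 0.05. The procedure was tested on simulated data, and the outcome of that test is not reported here. The RefSeq accession of a probe gave its name, by way of the RefSeq gene table of GRCr8, for 21109 of 45598 probes, or 46.3%. The files hold no column of gene names, so naming by symbol was not possible. The 13647 tested probes with a name stand for 10740 genes, each represented by the probe that was brightest on average, and other probes are given where they disagree. Promoters come from RefSeq on GRCr8, while the array design cites an older assembly, whose coordinates were not used.

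Named genes are the 12 largest changes each way with non-overlapping groups and all 6 arrays well above background, 5 genes each way with no array of 1 group well above background, the 8 largest differences each way against each other compound, the 4 largest called members of each of 27 lists, and well known members whatever their value. Of the last, *Sirt1* had no named probe and *Ppargc1a*, *Cyp1a1* and *Pdk4* were not tested. Some genes that these rules reach are not reported here, while all counts and medians include them. Other members named as examples were chosen after their values were seen. The members and lists were chosen with earlier results of these data known. Where no array of a group was well above background, the bound raises the value on each of its arrays to the lowest signal marked so on that array, unless it is higher already. Where it was higher on all of them, only the call is given, with no fold change or bound.

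The alternatives run were: quantile normalization, normexp correction of the background (offset 50) with either scaling, the deposited table, no filter, a strict filter that left 21200 probes, the percentile taken over these, a fit to the compared arrays alone, a block for the slide or for the replicate number, single slides, eBayes with trend and robust settings, outlier spots kept, the mean over a gene's probes, and leaving out each array. Deviations from the group means correlated across probes between resveratrol and control arrays of the same number at 0.43, 0.19 and 0.74, and at 0.36, 0.25 and 0.73 with pinosylvin and 0.46, 0.42 and 0.72 with GR24. Resveratrol replicate 1 gave 0.48 with control replicate 2, on the same slide, and -0.66 with control replicate 3, on the other. Deviations within a group cancel out by construction, so positive values with its other arrays force the negative one, which is no separate evidence. With GR24 the unmatched numbers 1 and 2 gave 0.22 and 0.24. Arrays of the same slide thus varied together, and within slide 1 the same number gave the higher values against GR24 but not against the control or pinosylvin. Probes are not independent replicates.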

Additional observations from a re-analysis of the deposited data

How the results depend on the processing

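For resveratrol against control, 149 genes were followed through the alternatives. Of the 129 that passed the test, 95 passed in every tested alternative that held their probe, and dim probes were absent from the strict filter. None of the 129 changed direction. The 16 genes with the largest differences against pinosylvin, and the 16 against GR24, also kept their calls wherever tested, but not their sizes, and other genes named in those comparisons were not followed. With normexp the log2 fold changes of many dim genes were smaller in all 3 comparisons. Its offset of 50 is added to every signal, which in itself makes the changes of dim genes smaller. How much of the decrease in size was due to the offset was not tested. The log2 fold change of *Sox8* against pinosylvin went from -1.77 to -0.63 with normexp and quantile normalization, and that of *Plcd4* against GR24 from -3.59 to -2.02. Signal over background is a limit for the dim genes, and the small number of arrays is another limit. Which limit weighs most was not tested. The alternative with only probes named by accession was not run, since all names come from accessions. A fit to the 6 arrays compared alone, and no filter, each also lost calls of genes described as passing, among them *Dhcr7*, *Fap*, *Hspa5*, *Myh3*, *Nrf1*, *Scd*, *Scd2* and *Sirt4* in both. In slide 2 alone, with 1 array per group, there was no test.

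Probes called higher with resveratrol than the control numbered 1070 with no filter and 1215 with only the 6 arrays compared, where fewer arrays enter the fit. With the replicate block 3419 were higher and 3349 lower, and with the slide as a block 3524 and 3345. Against pinosylvin the counts were 903 higher and 1072 lower with no filter, 2816 and 3507 with the replicate block, and 2879 and 3565 with the slide as a block. Leaving out 1 array gave 1192 to 1623 higher and 1546 to 2270 lower against the control, 1030 to 1282 and 1086 to 1533 against pinosylvin, and 5288 to 5700 and 5730 to 6682 against GR24. Among the 149, the replicate block changed the calls of *Acta1*, *Hspa1a* and *Ptgs2* and no other, and the slide block called *Acta1*, *Ptgs2* and *Tfam* (adjusted p = 0.0211, 0.0336 and 0.0499).

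Among the single genes followed, values that changed sign belonged to genes that did not pass. Medians of some gene groups changed sign too, as given with those groups. For *Il6* log2 fold change, resveratrol against control, the value was 0.0540 with quantile normalization, 0.0321 with normexp and quantile normalization and 0.0520 in the deposited table. For *Abcc3* it was -0.10 with normexp, 0.73 within slide 1 (adjusted p = 0.0181) and -1.14 in slide 2, with no test, and leaving out 1 array gave -0.18 to 0.60. For *Cyp1b1* it was -0.0689 with normexp and -0.0183 within slide 1, with -0.10 to 0.15 on leaving out 1 array. For Fbxo32 log2 fold change, resveratrol against control, the value was -0.00161 with normexp and -0.16 within slide 1, with -0.16 to 0.17 on leaving out 1 array. *Ugt1a6* read -0.00891 within slide 1, with -0.00258 to 0.0984 on leaving out 1 array. *Nampt* read -0.17 as the mean over its probes. *Abcc2* read -0.34 in slide 2, with no test, and ran from -0.24 to 0.33 on leaving out 1 array, and 1 gene not reported here from -0.0519 to 0.22. The cause was not tested.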
